A study of Homo sapiens with 8 samples.

Results

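The genes that build adherens junctions and desmosomes were examined in HepG2 cells, a cell line from a human liver carcinoma, upon ectopic expression of the epithelial transcription factor GRHL2. The 10 genes were taken by symbol as a list of cadherin, catenin and desmosome genes, and all 10 were among the 17561 genes of the deposited table. Cells were transfected either with pGRHL2, which carries a flag-tagged GRHL2 cDNA behind an EEF1A1 promoter together with a green fluorescent protein, or with the control vector pcDNA3, and RNA was collected after 48 h. There were 4 libraries of each plasmid, and their titles carry the numbers 1 to 4. The protocols describe no sorting of the transfected cells, and the vectors differ in promoter and in the fluorescent protein as well as in GRHL2, so that these differences cannot be told apart. In bulk samples, a change in the share of expressing cells and a change in RNA per cell cannot be told apart either.

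Adherens junctions hold neighbouring epithelial cells together through classical cadherins, whose cytoplasmic tails bind catenins that link them to actin filaments. Desmosomes are built on the same plan from desmogleins and desmocollins, which are anchored through plakoglobin, plakophilins and desmoplakin to keratin filaments. In liver, both junction types join hepatocytes to each other and the epithelial cells of bile ducts to theirs, and the E-cadherin gene CDH1 is a well-known target of Grainyhead factors in other epithelia.

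Values are given on a log2 scale per transcript length, as deposited, and log2 fold changes (log2 FC) are pGRHL2 minus pcDNA3. Averaging pGRHL2 library 1 with pcDNA3 library 1 gave the same value as for numbers 2, 3 and 4 in every one of the 17561 genes, so the libraries form 4 pairs whose values mirror each other. The 8 values of a gene therefore hold 4 pair differences, and groups do not overlap exactly when all 4 pair differences share a sign. GRHL2 itself stood at 16.22 to 16.87 in the pGRHL2 libraries and at 6.61 to 7.25 in the pcDNA3 libraries, without overlap. The pcDNA3 values lie near the library medians of 6.71 to 6.73. By RT-qPCR, however, the study found little or no detectable GRHL2 in this cell line under basal conditions. The source of this difference was not tested. All 6 hepatocyte markers examined were in the table, at mean log2 values of 9.83 to 17.11, and none of them was called as changed. Of 10 markers of fibroblasts, endothelial cells and leukocytes, 3 were in the table, namely COL1A1, PECAM1 and VWF, at mean log2 values of 5.82, 5.43 and 1.91. COL1A1 stood at 5.88 to 5.99 in pGRHL2 and at 5.66 to 5.77 in pcDNA3, without being called, and its part in the results below was not tested. The depth of the libraries was unknown, since the table holds no counts.

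None of the 10 junction genes was called as changed at a limma adjusted p under 0.05 over all genes, a threshold passed by 385 of the 17561 genes (2.19%). JUP and CDH1 had the highest log2 FC of the list, 0.33 and 0.26, and CTNNA1 had the lowest, -0.16. These 3 genes were also the members with an unadjusted limma p under 0.05, which was found for 2802 of all genes (16.0%; 9.17% higher and 6.78% lower in pGRHL2). They were the members whose groups did not overlap as well, against 24.0% of all genes (13.4% higher and 10.5% lower). All members but CTNND1 had a mean log2 value of at least 5, and among the 10858 genes at such levels the corresponding shares were 1.42% called, 15.0% at an unadjusted limma p under 0.05 and 22.5% without overlap. The other 7 members had log2 FC between -0.0632 and 0.0488, and each of their 95% confidence intervals included 0. The median log2 FC of the 10 genes was 0.0067, beside 0.0017 over all genes, and 6 of them were above 0. With the limma fit that ignores the pairing, JUP, CDH1 and CTNNA1 were called, as were 18.5% of all genes.

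**Figure D1:**
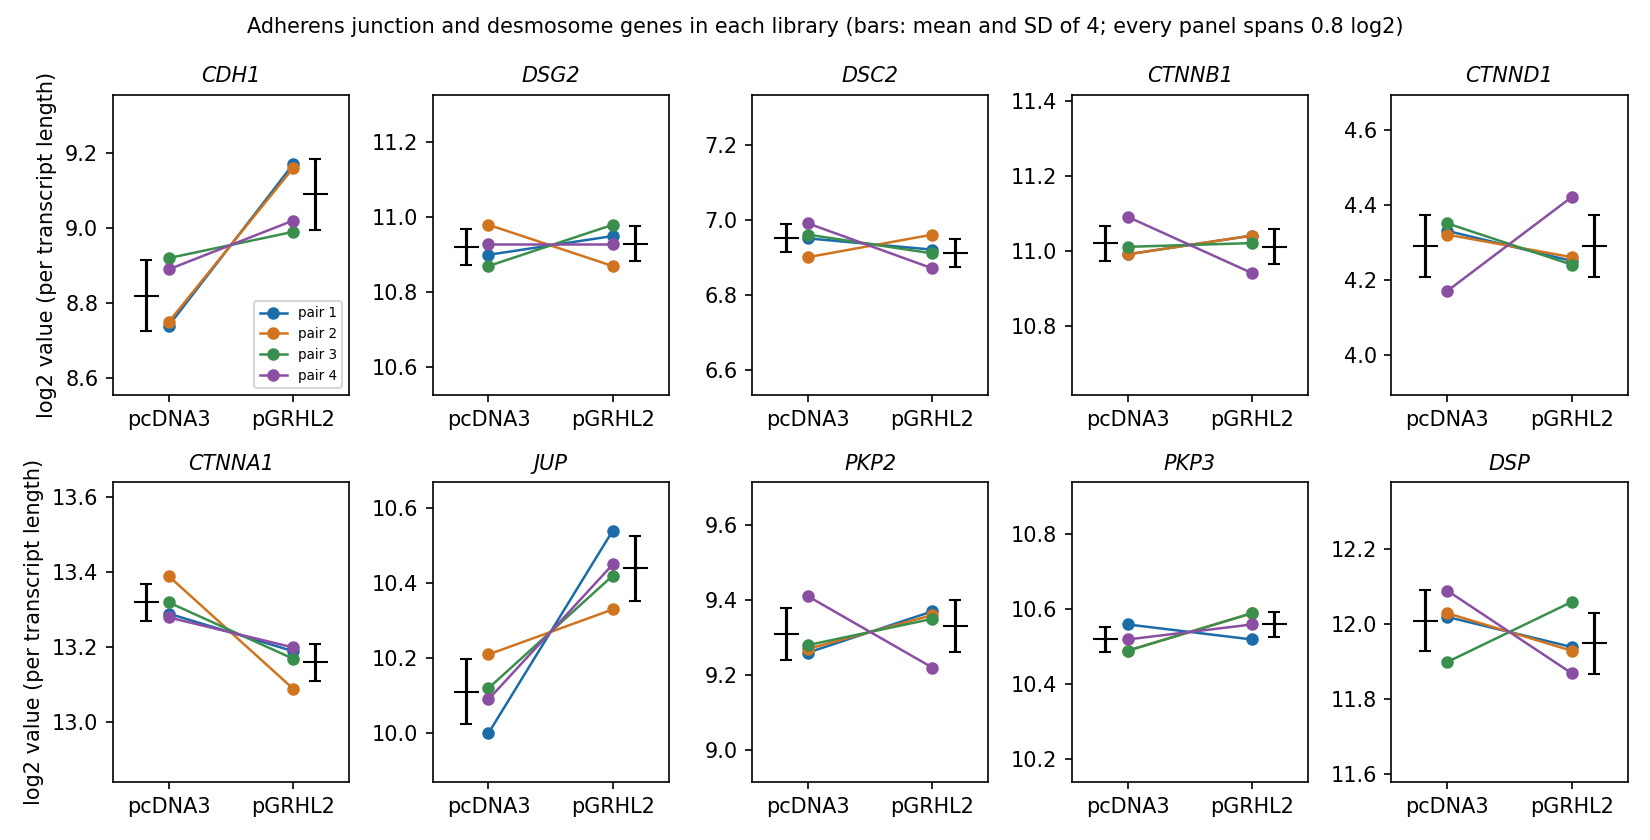
Deposited log2 value per transcript length (y axis) of each of the 10 genes in the 4 pcDNA3 and 4 pGRHL2 libraries. Coloured points joined by a line are the libraries of a pair, black bars are the group mean ± SD (n = 4), and every panel spans the same width of the log2 scale. Because pair means are identical, the SD is the same in both groups and does not hold the full variation between libraries. The pGRHL2 point is the upper one in all 4 pairs for CDH1 and JUP and the lower one in all 4 pairs for CTNNA1, whereas the other 7 genes have pairs of both directions.

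JUP encodes plakoglobin, an armadillo protein that binds cadherin tails in both junction types. It lies on chromosome 17 from 41754604 to 41786931 on the minus strand (hg38, GENCODE release 44), and none of its exon bases is shared with another gene. In pGRHL2 libraries 1 to 4, JUP stood at 10.54, 10.33, 10.42 and 10.45 on the log2 scale, whereas pcDNA3 libraries 1 to 4 gave 10.00, 10.21, 10.12 and 10.09. The lowest pGRHL2 library was thus above the highest pcDNA3 library, and pair 2 had the smallest difference. The mean pair difference of JUP was 0.33 ± 0.17 (SD, n = 4 pairs; limma 95% confidence interval 0.16 to 0.49). This corresponds to a value 25.6% higher in pGRHL2 (12.1% to 40.8%) in the deposited values, which come from a transformation that shrinks differences. The limma adjusted p was 0.058, so that JUP did not pass the threshold. It passed in 4 of the 7 other fits that kept the pairing (adjusted p between 0.036 and 0.063) and in none of the 4 leave-one-out fits over 3 pairs, where the log2 FC was 0.26 to 0.40 and the adjusted p was 0.069 to 0.277. JUP is also a gene that the study picked in part for its behaviour in these libraries, so its position at the top of the list is not independent evidence. The study counts JUP among the genes induced by GRHL2 and shows its change in the RNA-seq of these HepG2 cells. Its differential test was DESeq2, whereas limma was run here on the deposited values. The study has other evidence on JUP that was not examined here, including RNA-seq of BMEL cells, a mouse embryonic liver line. It shows GRHL2 ChIP-seq signal at JUP in transfected HepG2 cells and proposes direct regulation. By RT-qPCR, it also reports JUP induction by GRHL2 in HepG2 cells at moderate expression, in HepaRG cells and in mouse liver.

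The promoter windows of the genes were inspected for short motifs, because SNAI1, a repressor that binds the E-box CAGGTG, was lower in pGRHL2 (given with the repressors) and because Grainyhead factors bind AACCGGTT-like sites. RefSeq windows (GRCh38.p14) running from 250 bases before to 50 bases after a start site were at hand for 6 of the 10 members, 11 windows in all, and for NECTIN4. No window was used here for CDH1, CTNND1, PKP2 and PKP3. Neither AACCGGTT nor the looser AACNGGTT, which includes it, occurred on either strand in the 11 windows. These motifs were found in 0.134% and 1.73% of all 35116 windows. CAGGTG, searched on both strands so that CACCTG counts as well, occurred in 4 of the 11 member windows and in 4 of the 6 members, namely JUP, DSP, DSG2 and DSC2. It occurred in 20.6% of all windows and in 24.1% of all 27305 genes. The log2 FC of JUP, DSP, DSG2 and DSC2 were 0.33, -0.0632, 0.0128 and -0.0348. Those of CTNNB1 and CTNNA1, whose windows lack the motif, were -0.0118 and -0.16. Any link between the motif and a change was not tested. A match is a description of the letters and says nothing about binding. The stretches below are shown because they hold every match in the member windows and in the window of the called gene NECTIN4, with the E-box in capitals, 5′ to 3′ on the strand of the gene. The 2 matches of JUP lie in the window of 1 of its 2 start sites, at positions -54 to -38 from that site, separated by a few bases.
JUP (chr17:41786007-41786036, minus strand): tggcccCACCTGccgagCAGGTGagcgcac
DSP, farther site (chr6:7541481-7541510, plus strand): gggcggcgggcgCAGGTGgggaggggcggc
DSP, nearer site (chr6:7541574-7541603, plus strand): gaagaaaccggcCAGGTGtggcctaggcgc
DSG2, farther site (chr18:31497933-31497962, plus strand): acgtcacggtccCAGGTGcgagtgcgagcg
DSG2, nearer site (chr18:31498049-31498078, plus strand): tcgcggcggccaCACCTGgagccgcgcctt
DSC2 (chr18:31102560-31102589, minus strand): tcaactttctgtCAGGTGggcctcaggcag
NECTIN4 (chr1:161089579-161089608, minus strand): cccccagagacgCACCTGttctgacctgct

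CDH1 encodes E-cadherin, the classical cadherin of epithelial adherens junctions, and is encoded on the plus strand of chromosome 16 (68737292 to 68835537). Its pGRHL2 libraries 1 to 4 had log2 values of 9.17, 9.16, 8.99 and 9.02, whereas pcDNA3 libraries 1 to 4 gave 8.74, 8.75, 8.92 and 8.89. The groups did not overlap, but the pairs were uneven, with differences of 0.43 and 0.41 in pairs 1 and 2 and of 0.0716 and 0.13 in pairs 3 and 4. The CDH1 log2 FC amounted to 0.26 ± 0.19 (SD, n = 4 pairs; limma 95% confidence interval 0.0865 to 0.44) and the limma adjusted p was 0.129. None of the 7 other paired fits over all 4 pairs called CDH1, the lowest adjusted p being 0.051 with library weights. The 4 fits without a replicate number gave log2 FC of 0.20 to 0.32.

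The remaining cadherins of the list are desmosomal. DSG2, the desmoglein of simple epithelia, gave 10.95, 10.87, 10.98 and 10.93 in pGRHL2 and 10.90, 10.98, 10.87 and 10.93 in pcDNA3, in the order of library numbers. DSC2, its desmocollin partner, gave 6.92, 6.96, 6.91 and 6.87 in pGRHL2 and 6.95, 6.90, 6.96 and 6.99 in pcDNA3. In both genes the groups overlapped and the pairs did not share a sign. The log2 FC of DSG2 was 0.0128 ± 0.0953 (SD, n = 4 pairs; 95% confidence interval -0.11 to 0.14; limma adjusted p of 0.951). That of DSC2 was -0.0348 ± 0.0743 (95% confidence interval -0.15 to 0.0837; limma adjusted p of 0.82). The interval of DSG2 reached a level 10.2% higher in pGRHL2, and that of DSC2 reached a change of -10.1%. Both genes belong to the desmosomal cadherin cluster of chromosome 18, in which DSC2 spans 31058840 to 31102522 and DSG2 spans 31498177 to 31549008. Of their cluster neighbours, DSC3 and DSG4 were in the table, with log2 FC of 0.0412 and -0.0113 and no call. DSG1, DSG3 and DSC1 were not among the genes of the table.

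Catenins couple cadherins to the cytoskeleton. CTNNA1 encodes alpha-E-catenin, the link between beta-catenin and actin, and lies on chromosome 5 from 138610967 to 138935034. CTNNA1 stood at 13.19, 13.09, 13.17 and 13.20 in pGRHL2 libraries 1 to 4, and 13.29, 13.39, 13.32 and 13.28 in pcDNA3 libraries 1 to 4. All pGRHL2 libraries were below all pcDNA3 libraries, with the widest gap in pair 2. Its log2 FC was -0.16 ± 0.10 (SD, n = 4 pairs; limma 95% confidence interval -0.27 to -0.056). This is equivalent to a change of -10.5% (-16.8% to -3.81%) in the deposited values, and the limma adjusted p was 0.119. CTNNA1 was not called in any of the other 7 paired fits over 4 pairs (adjusted p of 0.086 to 0.193), and its log2 FC was -0.11 without replicate 2.

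CTNNB1, which encodes beta-catenin, the catenin that also acts in Wnt signalling, gave 11.04, 11.04, 11.02 and 10.94 in pGRHL2 and 10.99, 10.99, 11.01 and 11.09 in pcDNA3. Pairs 1 to 3 differed by 0.0142 to 0.0449 and pair 4 by -0.15, for a log2 FC of -0.0118 ± 0.0935 (SD, n = 4 pairs; 95% confidence interval -0.14 to 0.11; limma adjusted p of 0.955). CTNND1, which encodes p120-catenin, a stabilizer of cadherins at the membrane, gave 4.25, 4.26, 4.24 and 4.42 in pGRHL2 and 4.33, 4.32, 4.35 and 4.17 in pcDNA3. Pair 4 was again the odd pair, since it differed by 0.25 while the other pairs differed by -0.11 to -0.0547. The log2 FC was 0.00059 ± 0.17 (SD, n = 4 pairs; 95% confidence interval -0.13 to 0.13; limma adjusted p of 0.998). The values of CTNND1 call for caution, since 39.1% of its exon bases are also annotated to 2 other genes of GENCODE release 44, ENSG00000254732 and ENSG00000288534. Counting was unstranded and in union mode, which leaves reads over 2 genes uncounted. Whether the annotation used for counting held these genes, and whether reads of CTNND1 were lost, was not tested. The next highest such share among the members was 5.89%, in CTNNA1.

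The desmosomal plaque was represented by PKP2, PKP3 and DSP besides JUP. PKP2 and PKP3 encode plakophilins, armadillo proteins that cluster desmosomal cadherins, and DSP encodes desmoplakin, the plakin that attaches the plaque to keratin filaments. PKP2 gave 9.37, 9.36, 9.35 and 9.22 in pGRHL2 and 9.26, 9.27, 9.28 and 9.41 in pcDNA3. PKP3 gave 10.52, 10.59, 10.59 and 10.56 in pGRHL2 and 10.56, 10.49, 10.49 and 10.52 in pcDNA3. Groups overlapped in both genes, with 3 pairs higher and 1 pair lower in each. DSP gave 11.94, 11.93, 12.06 and 11.87 in pGRHL2 and 12.02, 12.03, 11.90 and 12.09 in pcDNA3, lower in 3 pairs and higher in pair 3. The log2 FC were 0.0234 ± 0.14 for PKP2, 0.0488 ± 0.069 for PKP3 and -0.0632 ± 0.16 for DSP (SD, n = 4 pairs), with limma adjusted p of 0.919, 0.735 and 0.71. The 95% confidence intervals were -0.13 to 0.18, -0.0742 to 0.17 and -0.21 to 0.0834. Over the 6 desmosomal members, JUP included, the median log2 FC was 0.0181, and over the 5 adherens junction members, which share JUP with them, it was 0.00059.

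**Figure D2:**
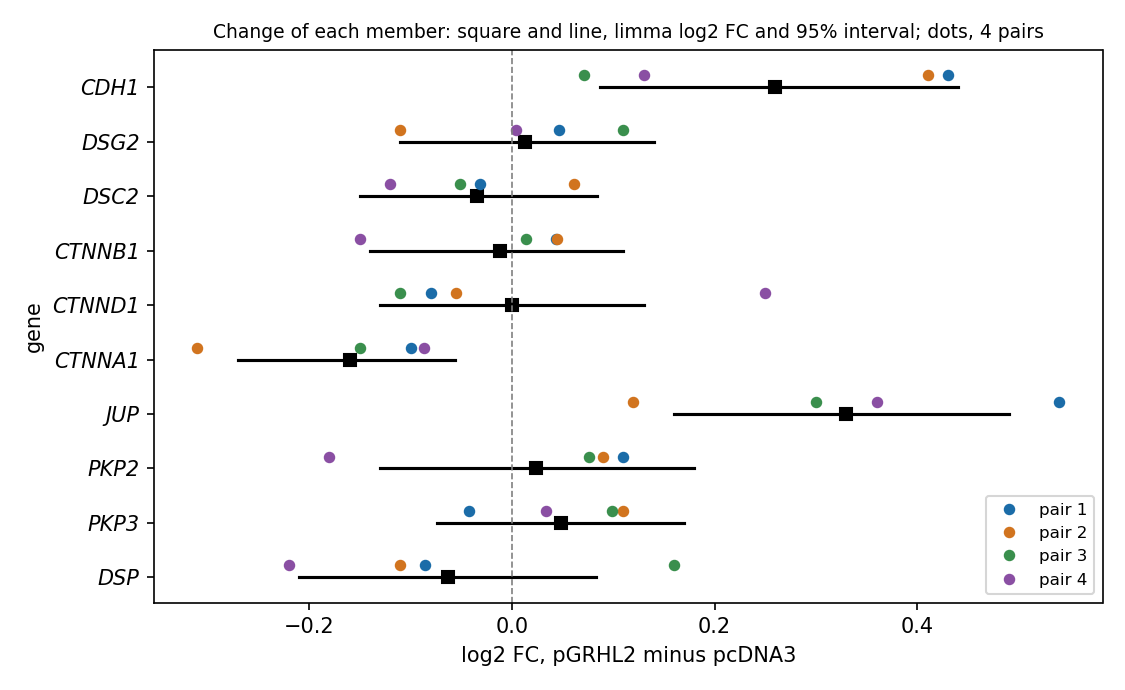
Log2 FC, pGRHL2 minus pcDNA3 (x axis), of the 10 genes (y axis). Squares and lines are the limma estimate with its 95% confidence interval, and coloured dots are the 4 pair differences. The intervals of CDH1, JUP and CTNNA1 do not reach 0, those of the other 7 genes do, and pair 4 lies apart from the other pairs in CTNNB1, CTNND1 and PKP2.

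Viewed by pair, the list did not move as a block. The number of members above 0 was 5 in pair 1, 6 in pair 2, 7 in pair 3 and 5 in pair 4, while 51.5% to 52.3% of all genes were above 0 in each pair. JUP had the highest difference of the list in pairs 1, 3 and 4, and CDH1 had it in pair 2. CTNNA1 had the lowest difference in pairs 1 to 3, and DSP in pair 4, at -0.22. The GRHL2 differences of pairs 1 to 4 were 8.97, 9.51, 10.26 and 9.18.

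The levels of the members spanned a wide range per transcript length. In pcDNA3, the order of mean log2 values was CTNNA1 (13.32), DSP (12.01), CTNNB1 (11.02), DSG2 (10.92), PKP3 (10.52), JUP (10.11), PKP2 (9.31), CDH1 (8.82), DSC2 (6.95) and CTNND1 (4.29). No neighbours in this order had overlapping library values. Because pair means are identical, these ranges hold only the spread of the pair differences and not the full variation between libraries. The order was the same in pGRHL2, but CTNNB1 and DSG2, at 11.01 and 10.93, then overlapped, and so did PKP3 and JUP, at 10.56 and 10.44. JUP was 0.41 below PKP3 in pcDNA3 and 0.13 below it in pGRHL2 on the log2 scale. The order depends on the lengths used, since the mean transcript length in GENCODE release 44 ran from 866 bases in PKP3 and 938 bases in CTNNA1 to 8552 bases in DSC2. Among all genes, CTNNA1 lay at the 99.4th percentile of level and CTNND1 at the 33.7th.

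**Figure D3:**
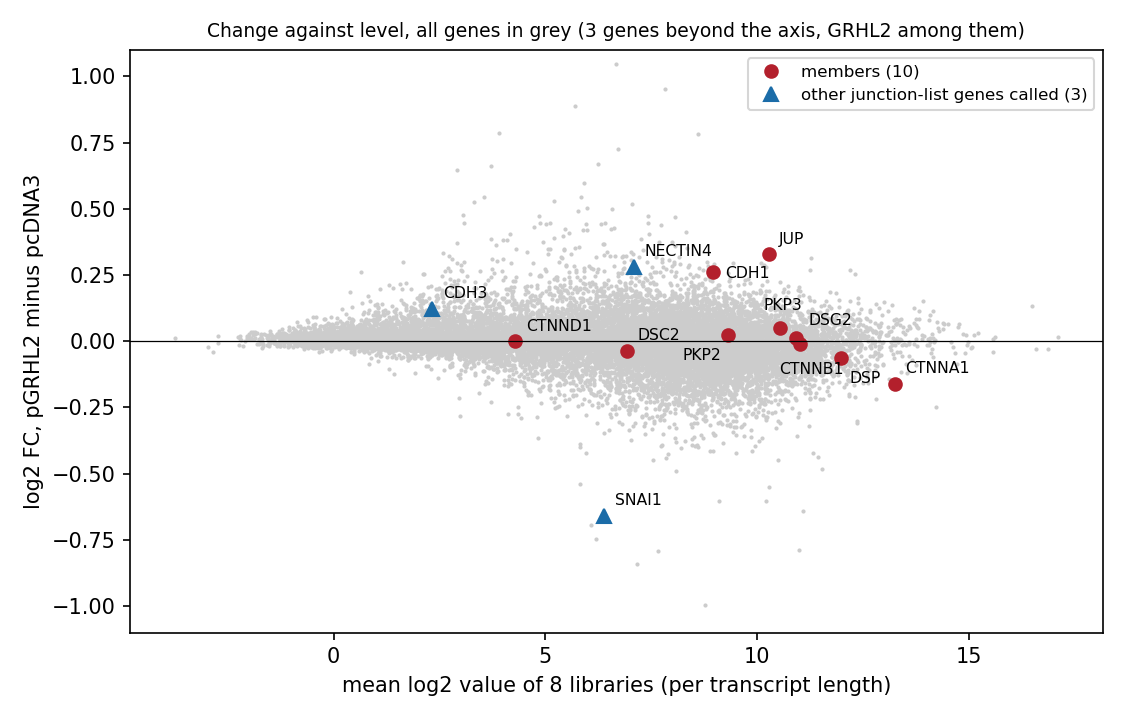
Log2 FC, pGRHL2 minus pcDNA3 (y axis), against the mean log2 value per transcript length of the 8 libraries (x axis). Grey dots are all 17561 genes, except GRHL2 and 2 others beyond the y axis, red circles the 10 members and blue triangles the 3 called genes of the other junction lists. JUP (0.33) and CDH1 (0.26) lie highest among the members, CTNNA1 (-0.16) lies lowest, and the other members lie between -0.0632 and 0.0488.

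Plakoglobin and beta-catenin are related armadillo proteins that compete for cadherin tails, and E-cadherin and N-cadherin (CDH2) are the classical cadherins of liver epithelium, so that their ratios were compared within each library. A log2 ratio is the difference between the log2 values of its 2 genes, so it is no evidence separate from those genes. The log2 ratio of JUP to CTNNB1 was -0.50, -0.71, -0.60 and -0.49 in pGRHL2 libraries 1 to 4 and -0.99, -0.78, -0.89 and -1.0 in pcDNA3 libraries 1 to 4. It was higher in pGRHL2 in 4 of 4 pairs, by 0.34 ± 0.20 (SD, n = 4 pairs). The log2 ratio of CDH1 to CDH2 was -0.59, -0.57, -0.77 and -0.71 in pGRHL2 and -1.07, -1.09, -0.89 and -0.95 in pcDNA3. This ratio was also higher in 4 of 4 pairs, by 0.34 ± 0.19, and N-cadherin stayed the more abundant transcript per length in all 8 libraries. The exact two-sided sign-flip permutation test gave p = 0.13 for each ratio (0.13 after Benjamini-Hochberg adjustment over the 2 ratios), which is the smallest p that 4 pairs allow, so that this test cannot reach 0.05.

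**Figure D4:**
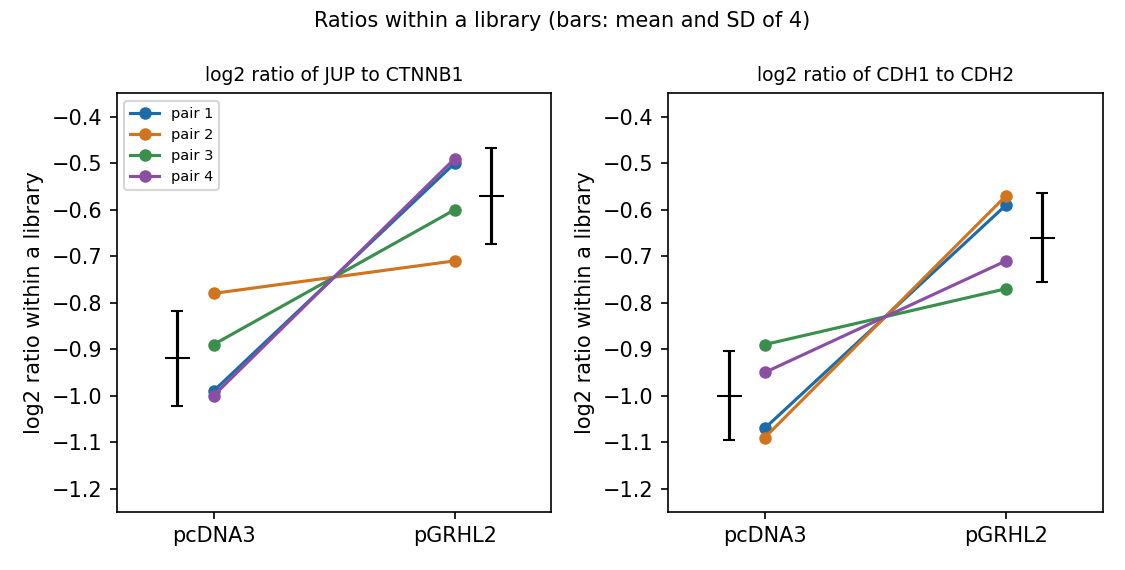
Log2 ratio within a library (y axis) of JUP to CTNNB1 and of CDH1 to CDH2 in the pcDNA3 and pGRHL2 libraries. Coloured points joined by a line are the libraries of a pair, and black bars are the mean ± SD (n = 4). As pair means are identical, this SD does not hold the full variation between libraries. Both ratios are higher in pGRHL2 in all 4 pairs, with a mean difference of 0.34 in each.

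The other genes of these junctions were described by 7 lists holding 56 genes, of which 44 were in the table. Of these 44, 2 rose (CDH3 and NECTIN4) and 1 fell (SNAI1) at a limma adjusted p under 0.05, against 1.69% higher and 0.501% lower over all genes. Among genes with a mean log2 value of at least 5, 1.42% were called in either direction. The lists were fixed with earlier results of these data known, so this is not an independent comparison. The median log2 FC of the 44 genes was -0.00806. Leave-one-out fits, which hold 3 pairs, called fewer genes of the whole table. They called 79 to 156 genes higher and 8 to 68 lower, against 297 and 88 in the main fit.

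Of 5 other cadherins in the table out of 10 listed, CDH3, the P-cadherin gene that lies 9823 bases upstream of CDH1 on chromosome 16, was called. Its log2 values were 2.37, 2.40, 2.40 and 2.40 in pGRHL2 and 2.29, 2.26, 2.26 and 2.27 in pcDNA3. The groups did not overlap, and a log2 FC of 0.12 ± 0.0281 (SD, n = 4 pairs) came with a limma adjusted p of 0.022 at a low level. The call was lost in each of the 4 leave-one-out fits (adjusted p of 0.059 to 0.097) and after correction for GC content, length and level (0.111), while the log2 FC was 0.12 to 0.14 in the former and 0.0944 in the latter. CDH2, the N-cadherin gene, was lower in 4 of 4 pairs with a log2 FC of -0.0744 ± 0.0389, and CDH15, which encodes M-cadherin, had a log2 FC of 0.12 ± 0.16, neither being called (limma adjusted p of 0.568 and 0.335).

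The nectins are immunoglobulin-like adhesion molecules that act beside cadherins in adherens junctions and bind the scaffold protein afadin (AFDN). All 7 nectin and afadin genes listed were in the table, and NECTIN4 was called. It gave 7.23, 7.23, 7.30 and 7.21 in pGRHL2 and 6.97, 6.98, 6.90 and 7.0 in pcDNA3. Each pGRHL2 library was above each pcDNA3 library, giving 0.28 ± 0.086 as log2 FC (SD, n = 4 pairs), and limma's adjusted p was 0.037. This call was lost in each of the 4 leave-one-out fits (adjusted p of 0.073 to 0.164) and when genes of low level were left out (0.055), while the log2 FC was 0.24 to 0.30 in the former and 0.28 in the latter. NECTIN2 and AFDN, the most abundant genes of the list, had log2 FC of 0.0745 ± 0.0462 and -0.13 ± 0.14 and were not called (limma adjusted p of 0.555 and 0.397).

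Among the repressors of CDH1, SNAI1 fell. It gave 6.08, 6.09, 5.85 and 6.20 in pGRHL2 and 6.69, 6.68, 6.92 and 6.57 in pcDNA3. The groups did not overlap, with a log2 FC of -0.66 ± 0.30 (SD, n = 4 pairs) and a limma adjusted p of 0.014. The call was lost without replicate 1 (adjusted p of 0.075) and without replicate 2 (0.058). The log2 FC was -0.68 in both of these fits. ZEB1, another repressor of CDH1, was lower in 3 of 4 pairs with a log2 FC of -0.24 ± 0.18, and TCF3, an E-box binding factor, had a log2 FC of 0.0175 ± 0.062, neither being called (limma adjusted p of 0.149 and 0.927). Of the 7 repressors listed, 5 were in the table, and the remaining pair, ZEB2 and SNAI2, is named after its values were seen. ZEB2 was higher in 4 of 4 pairs with a log2 FC of 0.0828 ± 0.0619, and SNAI2 was lower in 4 of 4 pairs with a log2 FC of -0.0941 ± 0.074. Neither gene was called (limma adjusted p of 0.113 and 0.166), and both had low mean log2 values of 1.38 and 2.80.

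No gene was called in the remaining 4 lists. The 6 other catenins and catenin-binding proteins in the table had a median log2 FC of -0.00709, with -0.16 ± 0.0669 for the armadillo gene PKP4, lower in 4 of 4 pairs (limma adjusted p of 0.191), and -0.0784 ± 0.21 for the alpha-catenin relative CTNNAL1 (0.7). The 6 other desmosomal and plakin genes had a median log2 FC of 0.042, with 0.0429 ± 0.24 for the desmosome-associated membrane protein gene PERP and 0.16 ± 0.18 for EVPL, which encodes envoplakin (limma adjusted p of 0.879 and 0.349). The 8 actin linkers had a median of -0.0414 and included the alpha-actinins ACTN1 and ACTN4 at -0.00809 ± 0.11 and -0.0542 ± 0.15 (limma adjusted p of 0.971 and 0.745). The 7 genes of cadherin turnover had a median of -0.00803, with -0.00803 ± 0.0983 for ADAM10, a protease that sheds cadherins, and 0.0667 ± 0.11 for RAB11A, a GTPase of recycling endosomes (limma adjusted p of 0.972 and 0.652).

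**Figure D5:**
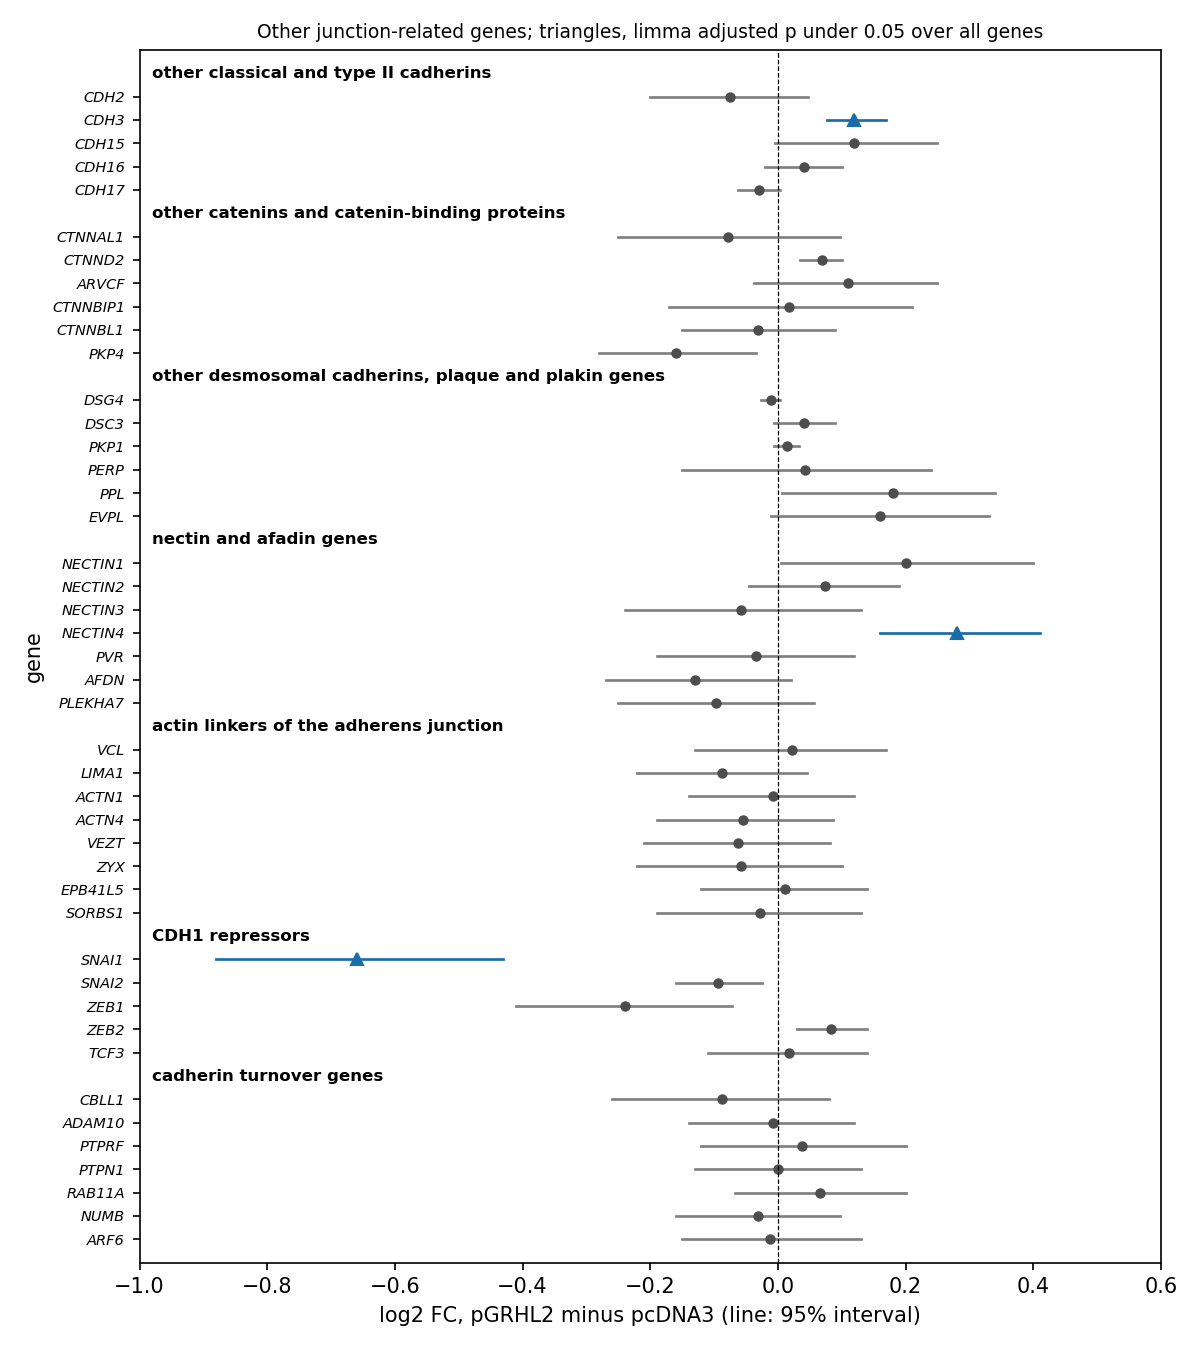
Log2 FC, pGRHL2 minus pcDNA3 (x axis), with the 95% confidence interval of limma, for the 44 other junction-related genes in the table, grouped by list (y axis). Blue triangles mark the 3 genes called at an adjusted p under 0.05 over all genes, CDH3 and NECTIN4 above 0 and SNAI1 below 0, and circles mark genes that were not called.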

How the data were processed

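RNA was sequenced from 4 pGRHL2 and 4 pcDNA3 libraries of HepG2 cells, grouped and numbered by their titles. The authors mapped reads to hg38 (HISAT2 2.2.1 per the labels) and counted them over exons with HTSeq 0.9.1 without strand (minimum alignment quality of 10). They removed genes with fewer than 10 reads over all samples. Per the methods, rlog values (DESeq2 1.40.2 per the labels) were then divided by mean transcript length. The log2 FC and percent changes here assume a division on the linear scale, which the methods do not state. Although its name says FPKM, the deposited table holds log2 values, from -3.76 to 17.3, of which 3.71% are below 0. The library medians were 6.71 to 6.73. Rlog shrinks differences, more so for weakly expressed genes, so the log2 FC and percent changes given here are those of shrunken values. A trailing character was stripped from 1 value.

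The means of same-numbered libraries are identical, as after removal of replicate means, a step that the methods do not describe. The deviations of same-numbered libraries are therefore correlated at -1 by construction. Limma 3.58.1 (R 4.3.3; lmFit, eBayes with trend) was fitted over all 17561 genes blocked by replicate number (3 residual degrees of freedom), and p-values were adjusted by the Benjamini-Hochberg method over all genes (threshold of 0.05). The study describes the replicates as independent biological replicates.

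The genes and lists were chosen with earlier results of these data known, and no p-value was adjusted over a list alone. The genes named were GRHL2, the 10 members, list genes called by limma, the 2 most abundant genes of each list, and CDH2, CDH3, SNAI1 and ZEB1. DSC3, DSG4, SNAI2, ZEB2 and the cell type markers are named besides. Of all genes, 99.9% matched GENCODE release 44. Other settings were arrayWeights, robust eBayes, no block, 2 scalings (median centring and the same total without GRHL2), genes with a mean of 5 or more, removal of level trends (natural spline with 5 degrees of freedom), an adjusted p under 0.01 and leaving out each replicate number (both libraries of the pair). Removal of GC content, length and level trends was added after seeing the data.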

Additional observations from a re-analysis of the deposited data

Results flagged for a closer look

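Because the libraries of a pair mirror each other, an unusual library shows up as an unusual pair difference. Of 28 genes examined, 3 had a pair whose gap to the next, relative to the range of the 4 pairs, exceeded Dixon's 95% critical value, where chance gives about 1 in 20, and the pair was pair 4 in each of them. The CTNNB1 difference was -0.15 in pair 4 and 0.0142 to 0.0449 in the others. For CTNND1, pair 4 gave 0.25 and the others -0.11 to -0.0547, and without replicate 4 its log2 FC was -0.0817. For PKP2, pair 4 gave -0.18 and the others 0.0763 to 0.11, and without replicate 4 its log2 FC was 0.0923 (limma adjusted p of 0.463).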

How the results depend on the processing

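When limma ignored the replicate block, 1821 genes were called higher, 1427 lower, and 3 of the 10 members were among them (CDH1, CTNNA1 and JUP), and the unpaired exact permutation test of both ratios (0.34 each) gave p = 0.0286, against 0.13 with the pairing. These fits count mirrored libraries as separate samples. JUP was the 1 member called with robust eBayes, arrayWeights, the same total without GRHL2 and a mean value of at least 5 (limma adjusted p of 0.044, 0.036, 0.041 and 0.044). Higher genes numbered 503 with arrayWeights, 495 with the same total without GRHL2, 63 among genes with a mean of at least 5, 191 with the level trend removed, 150 with GC content, length and level trends removed, and 77 at an adjusted p under 0.01. Lower genes numbered 221 with arrayWeights and 10 at an adjusted p under 0.01. The share of higher calls, 77.1%, became 56.1% without the block and 43.8% among genes with a mean of at least 5. Leaving out a replicate number, the JUP to CTNNB1 difference was 0.29 to 0.43 and the CDH1 to CDH2 difference 0.27 to 0.41. Leaving out a replicate number gave 79 to 156 higher and 8 to 68 lower genes, and 0 members called in each of the 4 fits, which have fewer samples. The cause of the other changes was not tested.

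Signs turned only in genes that were not called. CTNNB1 was above 0 with arrayWeights (0.00616), the same total without GRHL2 (0.00165), the level trend removed (0.0117) and all trends removed (0.0166), as were ACTN1 in the first 3 of these (0.00597, 0.0054 and 0.0114) and ADAM10 in all of them (0.00135, 0.00546, 0.0175 and 0.0291). CTNND1 was below 0 with arrayWeights (-0.0239), median centring (-0.00375), the level trend removed (-0.0205) and all trends removed (-0.0171). When replicates were left out, the log2 FC ranged from -0.0308 to 0.0343 for CTNNB1, -0.0817 to 0.0376 for CTNND1, -0.0207 to 0.0549 for DSG2, -0.00579 to 0.0923 for PKP2, -0.16 to 0.00195 for CTNNAL1, -0.0604 to 0.12 for PERP, -0.0417 to 0.0285 for ACTN1, -0.10 to 0.00231 for ACTN4, -0.00562 to 0.0397 for TCF3 and -0.0386 to 0.0376 for ADAM10.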
